A study of Mus musculus and Acomys cahirinus with 84 samples.

Results

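Skin fibroblasts grown from wild mice were compared with skin fibroblasts grown from mice labelled C56BL6, both untreated and both collected at 24 h. Each population gave 4 libraries, so the comparison used 8 of the 84 libraries of the series and 8 of its 56 mouse libraries, and members were taken by their labels alone. Untreated here means that the cells received 0 Gy, in a study whose other cultures received 10 or 20 Gy of gamma radiation. All 8 libraries were made from polyA RNA of primary cultures and belong to the 24 h batch of the labels. The labels give neither the sex of the animals nor the site of the skin, and for the C56BL6 mice no substrain. Genes on chromosomes X and Y were left out, because the labels do not give sex, and 13872 genes were tested.

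Fibroblasts are the cells of connective tissue that make collagen and the other fibres and glycoproteins of the matrix around them. They keep in culture the Hox genes and other positional transcription factors of the body site they came from. The mouse reference genome was assembled from an inbred strain of the C57BL family, so reads from such mice match it almost base for base, while wild mice carry many differences from it. A processed pseudogene is a copy of a messenger RNA that was written back into the genome without introns, and some of these copies are nearly identical to the gene they came from.

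The 8 cultures expressed most of the fibroblast markers listed. Of 12 fibroblast markers, 11 had a mean over 1 CPM (counts per M counts in the library) in both populations. The summed level of the 12 was 22800 to 38300 CPM in wild and 16300 to 25500 CPM in C56BL6 libraries, mostly from Col1a1, Col1a2, Col3a1 and Vim. Other markers were low in some libraries. Dcn was at 0.227 to 59.5 CPM in wild and 0.755 to 25.8 CPM in C56BL6. Lum was at 0 to 2.24 and 0.0343 to 0.434 CPM, and Twist2 at 0.735 to 13.1 and 15.1 to 19.1 CPM. Of 9 skeletal muscle markers, Myod1, Myf5 and Ckm had no count in any of the 8, while the actin gene Acta1 was at 18.7 to 496 CPM in wild and 82.4 to 180 CPM in C56BL6 and made up most of the summed level (19.1 to 497 and 83 to 182 CPM). Of 12 macrophage and other immune markers, Adgre1, Tyrobp and C1qa had no count in any library, while Csf1r, Cd68, Cd14 and Lyz2 had means over 1 CPM in both populations, with Csf1r highest at 5.46 to 46.2 CPM over the 8 libraries. Of the keratinocyte markers, Krt5 and Krt14, the keratins of basal epidermis, were at 137 and 247 CPM in C56BL6 replicate 1 and at 0.159 CPM or less in the other 7 libraries. Dsp and Sfn were also highest there, at 80.5 and 69.6 CPM, with Sfn at 3.41 to 4.58 CPM in the other C56BL6 libraries. Trp63 was highest in wild replicate 4, at 10.1 CPM, and Krt10 was at 0.921 to 2.5 CPM in all 8. Over the 12 keratinocyte markers the sum was 5.53 to 539 CPM in C56BL6 and 2.03 to 12.2 CPM in wild. The summed markers of pericytes and smooth muscle spanned 75.4 to 2950 CPM in wild and 200 to 548 CPM in C56BL6. Myh11, a smooth muscle myosin, was at 1560 and 343 CPM in wild replicates 1 and 3 and at 23.8 and 41.3 CPM in wild replicates 2 and 4. In such cultures, fewer cells of a type and less RNA per cell cannot be told apart.

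Total counts were 31.87 to 32.64 M in wild and 27.86 to 32.75 M in C56BL6 libraries, and 3 counts, taken as the floor, were worth 0.093 to 0.11 CPM. The wild libraries stood in 2 sets. Wild replicates 1 and 3 correlated at 0.965 across genes in log2 CPM and replicates 2 and 4 at 0.957, while the other wild pairs lay at 0.899 to 0.922. Pairs across the populations lay at 0.898 to 0.932, a range that overlaps that of wild pairs across the 2 sets. The C56BL6 pairs lay at 0.963 to 0.993. Xist, the RNA of the inactive X chromosome, had 8820 to 16414 counts in the 4 wild libraries and 11111 and 13808 in C56BL6 replicates 1 and 2. C56BL6 replicates 3 and 4 had 2 and 7 Xist counts and 5734 and 5874 counts on Y genes. All 4 wild libraries and C56BL6 replicates 1 and 2 thus had high Xist and 0 counts on Y genes, while C56BL6 replicates 3 and 4 had the reverse. The groups are not balanced in this respect, and leaving out genes on X and Y does not balance them. Against C56BL6 replicates 1 and 2 alone, an alternative chosen after seeing the data, 148 genes were called, 105 higher and 43 lower in wild.

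**Figure D1:**
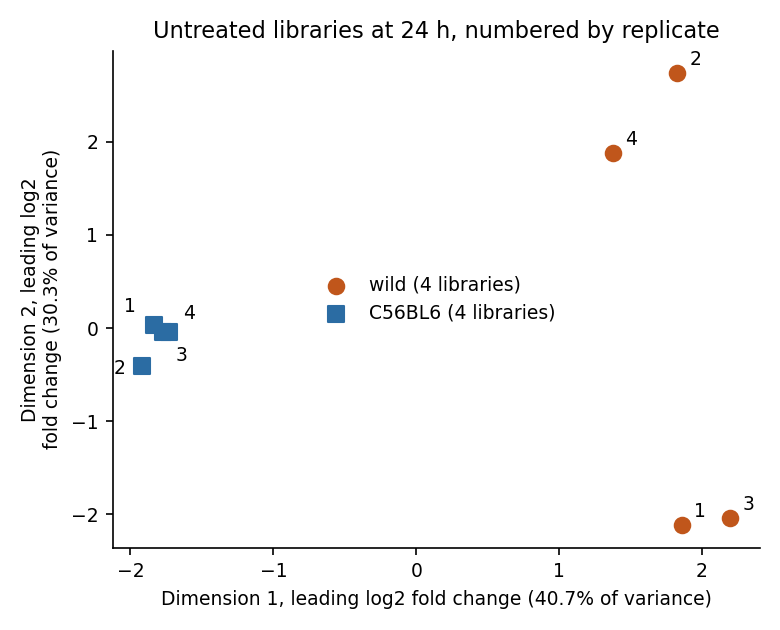
Multidimensional scaling of the 8 untreated libraries at 24 h, with the leading log2 fold change on both axes (40.7% of variance on dimension 1 and 30.3% on dimension 2); circles are wild and squares C56BL6 libraries, numbered by replicate. The populations separate along the first dimension, and along the second the wild libraries split into replicates 1 and 3 (-2.12 and -2.04) and replicates 2 and 4 (2.74 and 1.88), with all C56BL6 libraries between -0.40 and 0.04. The scaling uses only the genes that differ most between each pair of libraries.

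At an adjusted p under 0.05 by edgeR's quasi-likelihood test, 803 of 13872 genes differed between the populations (5.79%). Of these, 466 were higher in wild (3.36%) and 337 lower (2.43%). At an unadjusted p under 0.05 the count was 3077. The count fell to 388, 406 and 397 without C56BL6 replicate 2, 3 and 4. Among the 803 genes, 501 differed over 2-fold, and 794 had 4 wild libraries that did not overlap the 4 C56BL6 libraries. Over all genes tested, 2204 (15.9%) did not overlap. Processed pseudogenes were called in 112 of 403 (27.8%), with 107 higher and 5 lower in wild. Of the 107, 66 had under 3 counts per C56BL6 library on average and so passed the expression filter only through the wild libraries. The share of 27.8% is therefore given as description. Long non-coding RNAs were called in 72 of 1058 (6.81%), with 18 higher and 54 lower. Protein-coding genes with no near-identical copy elsewhere in the annotation were called in 519 of 11249 (4.61%), with 294 higher (2.61%) and 225 lower (2.0%). Without C56BL6 replicate 1, 2, 3 or 4 this last count was 310, 177, 183 and 186, while the count of pseudogenes lay between 103 and 113 over all 8 fits that left out 1 library. The p-values measure the spread between these libraries, and the labels do not say whether the animals of a population were related.

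**Figure D2:**
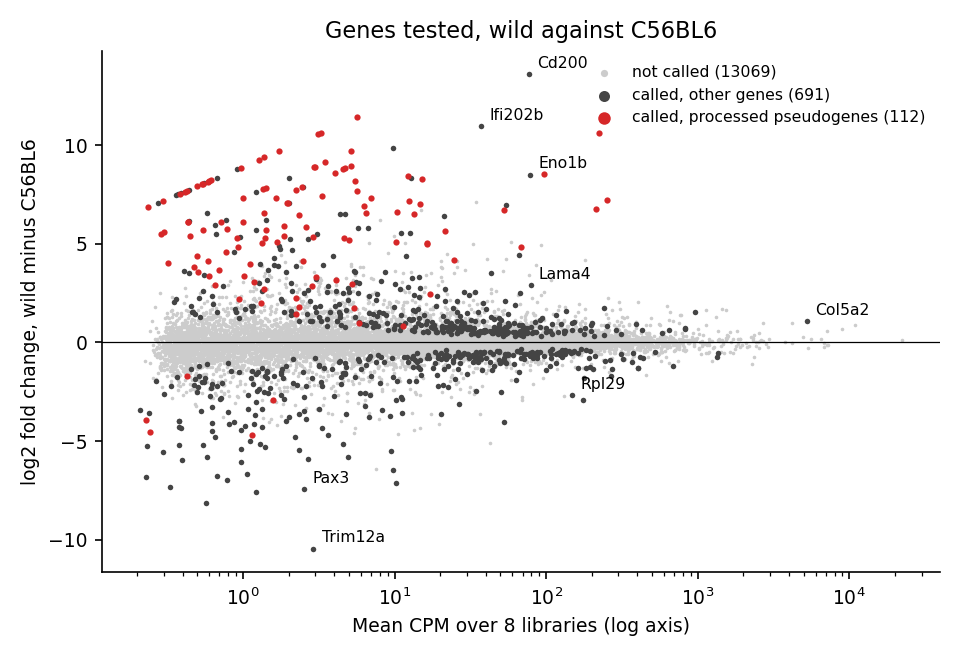
Log2 fold change, wild minus C56BL6, against the mean CPM over 8 libraries (log axis) for each of the 13872 genes tested; grey points were not called, black points are called genes and red points the 112 called processed pseudogenes. Most red points lie above 0, up to log2 values over 10, while the black points lie on both sides.

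The protein-coding gene most strongly higher in wild was Cd200 (ENSMUSG00000022661, GRCm39 chr16:45202498-45229416), a membrane glycoprotein that signals to myeloid cells through an inhibitory receptor. Its level was 195, 85.6, 322 and 11.9 CPM in wild replicates 1 to 4 and 0.0343, 0, 0 and 0 CPM in C56BL6 replicates 1 to 4. Every wild library was far above every C56BL6 library, and the C56BL6 group held 1 count in all against 18421. The ratio of levels was 18200, with an exact 95% counting interval of 3270 to 720000 (adjusted p = 0.0020). Such intervals cover counting error only.

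Ifi202b (ENSMUSG00000026535, chr1:173790134-173810310), an interferon-inducible DNA-binding protein that restrains the inflammasome sensor Aim2, had the next largest difference among genes with no near-identical copy. It was at 35.4, 44.4, 87.6 and 130 CPM in wild and at 0.137, 0, 0 and 0 CPM in C56BL6 libraries. All 4 wild libraries were high and 3 of 4 C56BL6 libraries had no count (log2 fold change 10.96 ± 0.88, SE, adjusted p = 0.00035). Pgcka1 (chr5:63969706-64056968) was at 22.6, 46.3, 6.63 and 2.06 CPM in wild and at 0, 0.0318, 0.0366 and 0 CPM in C56BL6. The groups did not overlap, although the wild values were widely spread. Over the group, Pgcka1 had 2339 counts in wild against 2, a ratio of 1160 with an interval of 320 to 9570 (adjusted p = 0.0052).

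Serpina3h belongs to a cluster of serine protease inhibitor genes on chromosome 12 and is annotated as a long non-coding RNA. It was at 63.6, 11.1, 17.3 and 9.81 CPM in wild and at 0.0343, 0.0953, 0.0366 and 0.124 CPM in C56BL6. Wild replicate 1 was well above the other wild libraries, and all 4 were above C56BL6 (log2 fold change 8.34 ± 0.91, SE, adjusted p = 0.0017). Its neighbours Serpina3i and Serpina3m and the pseudogene Serpina3e-ps were also higher in wild, so that 4 neighbouring genes of the cluster were called in 1 direction. Serpina3i was at 21.9, 4.77, 5.97 and 4.54 CPM against 0.0318 to 0.217 CPM. These genes resemble each other closely (Serpina3h matched Serpina3e-ps at 90.6% identity), so reads may be assigned to the wrong member and the value of each is uncertain.

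Among genes lower in wild, Trim12a (ENSMUSG00000066258, chr7:103949101-103964673), a tripartite-motif gene related to the antiviral factor TRIM5, had no count in any of the 4 wild libraries. The C56BL6 libraries had 4.70, 5.15, 6.11 and 7.35 CPM. Against the floor of 3 counts over the group, Trim12a was at least 237-fold lower in wild (adjusted p = 0.00050). Pax3 (chr1:78077904-78173771), a paired-box transcription factor of neural crest and dermomyotome, was at 0.105, 0, 0 and 0 CPM in wild and at 9.30, 5.56, 1.79 and 3.63 CPM in C56BL6. The wild group held 3 counts and the C56BL6 group 612, a ratio of 206 with an interval of 70.2 to 1000.0 (adjusted p = 0.0051).

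Ccdc88c, a Dishevelled-binding regulator of WNT signalling, was at 0.0350, 0.0325, 0.131 and 0.127 CPM in wild and at 4.67, 4.51, 5.27 and 6.57 CPM in C56BL6. The groups lay far apart, and the wild values stood around the floor of 3 counts per library, so that the size of the difference rests on few counts (log2 fold change -5.93 ± 0.46, SE, adjusted p = 0.00032). Tmem171, a transmembrane protein, was also separated, with 0.164 to 0.413 CPM in wild and 4.12 to 9.68 CPM in C56BL6 (log2 fold change -4.32 ± 0.41, SE, adjusted p = 0.00075). Pbp2, a phosphatidylethanolamine-binding protein, was at 0.0984 to 0.487 CPM against 5.49 to 15.3 CPM (adjusted p = 0.0026). Kcnf1, a modulatory subunit of voltage-gated potassium channels, was at 0.572 to 1.82 CPM against 7.98 to 32.6 CPM (adjusted p = 0.0066).

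Of the other strongly lower genes, 6 kept no stable call. Hunk, a serine/threonine kinase, was at 1.43, 0, 0.131 and 0.0635 CPM in wild and at 5.90, 18.8, 23.8 and 25.4 CPM in C56BL6 (log2 fold change -5.51, adjusted p = 0.035), and the call was lost without wild replicate 3 or 4 or C56BL6 replicate 2, 3 or 4 (adjusted p up to 0.10). Ptprz1, a receptor tyrosine phosphatase, was at 8.25, 6.82, 0.197 and 9.05 CPM in wild and at 151, 104, 56.4 and 84.5 CPM in C56BL6 (log2 fold change -4.02, adjusted p = 0.034), with the call lost in each fit that left out 1 library except wild replicate 3 (adjusted p up to 0.0877). The C56BL6 values of Ptprz1 were all above the wild values, and so were those of Hunk.

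Angptl1, a secreted angiopoietin-like protein, had a log2 fold change of -5.79 (adjusted p = 0.029), lost without any 1 library other than wild replicate 4 and C56BL6 replicate 1 (adjusted p up to 0.0721). Elobl, an elongin B-like gene, had -4.72 (adjusted p = 0.037), lost without any 1 library other than C56BL6 replicate 1 (adjusted p up to 0.089). Sfn, the epithelial protein 14-3-3 sigma, and the orphan receptor Gpr149 were highest in C56BL6 replicate 1, the library with high Krt5 and Krt14. Sfn was at 69.6, 4.58, 3.41 and 3.78 CPM in C56BL6 and at 0.0325 to 0.262 CPM in wild (log2 fold change -7.13, adjusted p = 0.028). Without C56BL6 replicate 1 its log2 fold change was -4.76 (adjusted p = 0.0080), and the call was lost without any 1 wild replicate (adjusted p up to 0.0639). Gpr149 was at 57.5, 10.0, 6.41 and 3.10 CPM in C56BL6 and at 0 to 0.595 CPM in wild (log2 fold change -6.49, adjusted p = 0.038). Without C56BL6 replicate 1 it was -4.92 (adjusted p = 0.0761), and the call of Gpr149 was lost without any 1 library other than wild replicate 1 (adjusted p up to 0.0827). The part of other cell types in these values was not tested.

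Among called genes with an assigned symbol, which leaves out predicted (Gm) genes, and at least 5 CPM in wild, the other largest differences in the higher direction were those of 7 processed pseudogenes and Eno1b. Predicted pseudogenes outside this rule differed as much, such as Gm14292 with 801 counts against 0 (at least 264-fold) and Gm10039 with 1244 against 1. Nudc-ps1 (chr8:29776459-29777009) was at 12.9, 10.2, 12.2 and 10.2 CPM in wild and had no count in any C56BL6 library. It was at least 454-fold higher, with 1377 counts against 0. Tdg-ps2, Ctdsp2-ps, Rtraf-ps, Rnps1-ps, Glo1-ps and Eif3s6-ps2 had log2 fold changes of 7.45 to 8.89, and each matched its coding gene at 96.0 to 99.5% identity. A copy was defined as a transcript aligned at 90% identity or more over 50% or more of its length, and 1320 of the tested genes had one. Genes with a copy were called in 205 cases (15.5%, 154 higher and 51 lower), genes without one in 598 of 12552 (4.76%, 312 higher and 286 lower).

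The sequences below show how little separates some such pairs, picked as examples, as windows of 120 coding bases around a difference. These pairs are 99.3 to 99.9% identical over the coding bases. Over the 103 processed pseudogenes called higher in wild with a tested coding copy, the median identity was 98.4% (range 91.8 to 100%). Coordinates and letters are from GRCm39 with GENCODE M39, all written 5′ to 3′ on the strand of the transcript, and the capital marks each base that differs. Positions count from 1 at the first base printed, with the base of the coding gene first. The coding windows lie in exons 3 and 4 of Gapdh (chr6:125139920-125140137, minus strand), exon 2 of Hspa8 (chr9:40713272-40713391, plus strand), exons 3 and 4 of Rpsa (chr9:119958245-119959205, plus strand) and exons 2 to 4 of Rpl29 (chr9:106307188-106308296, plus strand). The pseudogene windows lie in the single exons of Gm13394 (chr2:28824217-28824336, minus strand), Gm15459 (chr5:5833383-5833502, minus strand), Rpsa-ps10 (chr3:149778906-149779025, minus strand) and Gm8210 (chr1:43228327-43228446, plus strand).
Gapdh: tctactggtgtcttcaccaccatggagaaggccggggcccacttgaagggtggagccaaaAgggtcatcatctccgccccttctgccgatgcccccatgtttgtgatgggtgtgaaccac
Gm13394: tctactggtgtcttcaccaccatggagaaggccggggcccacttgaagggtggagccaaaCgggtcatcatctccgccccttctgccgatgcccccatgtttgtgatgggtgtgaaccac
Hspa8: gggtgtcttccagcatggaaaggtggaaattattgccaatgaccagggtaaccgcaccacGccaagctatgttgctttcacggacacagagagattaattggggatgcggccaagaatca
Gm15459: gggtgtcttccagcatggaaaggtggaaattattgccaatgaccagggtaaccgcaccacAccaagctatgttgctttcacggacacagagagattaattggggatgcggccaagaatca
Rpsa: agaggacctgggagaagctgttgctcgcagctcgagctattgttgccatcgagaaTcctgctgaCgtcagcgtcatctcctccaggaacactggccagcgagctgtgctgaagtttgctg
Rpsa-ps10: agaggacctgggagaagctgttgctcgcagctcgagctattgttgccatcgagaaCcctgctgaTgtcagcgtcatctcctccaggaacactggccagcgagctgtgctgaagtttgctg
Rpl29: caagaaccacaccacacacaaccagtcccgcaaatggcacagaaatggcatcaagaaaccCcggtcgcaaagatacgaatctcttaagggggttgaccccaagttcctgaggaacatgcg
Gm8210: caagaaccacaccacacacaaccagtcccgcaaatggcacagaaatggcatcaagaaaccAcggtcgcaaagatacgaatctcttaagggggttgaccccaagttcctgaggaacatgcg

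Gapdh and Gm13394 differ in 1 of 999 coding bases, the A61C shown, and share a run of 653 identical bases. Hspa8 and Gm15459 differ in 5 of 1938, of which G61A is shown, Rpsa and Rpsa-ps10 in 6 of 885, of which T56C and C65T are shown, and Rpl29 and Gm8210 in 3 of 480, of which C61A is shown. The letters are those of the reference genome, and no read of these libraries was seen here. How reads of wild mice that differ from the reference were placed between such copies was not tested.

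Gm13394, the copy of the glycolytic enzyme gene Gapdh, was at 530, 402, 509 and 356 CPM in wild and at 0.240, 0.222, 0.256 and 0.403 CPM in C56BL6. The ranges lie far apart (log2 fold change 10.62 ± 0.27, SE, adjusted p = 4.1e-07). Gapdh itself was at 1406, 963, 1296 and 938 CPM in wild and at 1336, 1204, 1169 and 1256 CPM in C56BL6, overlapping ranges (log2 fold change -0.11, adjusted p = 0.72). With the counts of its family summed, the 209 annotated genes joined directly or through each other by such matches, Gapdh included, Gapdh had a log2 fold change of 0.36 (adjusted p = 0.22).

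Gm15459, the copy of the constitutive chaperone gene Hspa8, was at 375, 419, 448 and 442 CPM in wild and at 4.08, 3.34, 4.32 and 3.91 CPM in C56BL6 (log2 fold change 6.75 ± 0.14, SE, adjusted p = 1.7e-07). Hspa8 was lower in wild, with 959, 1186, 1129 and 1124 CPM in wild and 1816, 1647, 1541 and 1454 CPM in C56BL6 (log2 fold change -0.55, adjusted p = 0.036). Neither gene's groups overlapped, and the call of Hspa8 was lost in each of the 8 fits that left out 1 library (adjusted p up to 0.112). Summed over the family, the wild mean was 1525 ± 127 CPM and the C56BL6 mean 1619 ± 157 CPM (SD, n = 4), a log2 fold change of -0.09 (adjusted p = 0.71).

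Rpsa-ps10, the copy of the ribosomal and laminin-binding protein gene Rpsa, was at 451, 667, 339 and 549 CPM in wild and at 4.02, 3.37, 2.64 and 3.44 CPM in C56BL6 (log2 fold change 7.22 ± 0.28, SE, adjusted p = 5.6e-06). The groups of Rpsa overlapped (log2 fold change -0.09, adjusted p = 0.80). Gm4366, the copy of the elongation factor gene Eef1g, was at 123, 135, 139 and 127 CPM in wild and at 5.08, 4.16, 4.14 and 4.90 CPM in C56BL6, while the log2 fold change of Eef1g was 0.00 (adjusted p = 0.99). Eno1b, an intronless protein-coding copy of the glycolytic enzyme gene Eno1, was at 183, 128, 202 and 110 CPM in wild and at 0.343 to 0.465 CPM in C56BL6 (log2 fold change 8.51 ± 0.28, SE, adjusted p = 2.8e-06). Eno1 had a log2 fold change of -0.13 (adjusted p = 0.74). In each of these families the copy differed and the gene it resembles was not called.

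For 103 processed pseudogenes called higher in wild whose coding copy was tested, the median log2 fold change was 6.12, or 5.58 with the 16 that had no C56BL6 count at their bound. These values follow from how the 103 were chosen and are given as description. Over the same 103 pairs the median log2 fold change of the coding copy was -0.13, with 68 below 0, and that of the summed family was 0.01. The coding copy had the higher level in 101 of 103 pairs in wild and 100 of 103 in C56BL6. It was called lower in 16 pairs and higher in 3, and the summed family was called in 10. With all copies summed into families, an alternative chosen after seeing the data, 514 of 13196 features were called, 272 higher and 242 lower.

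**Figure D3:**
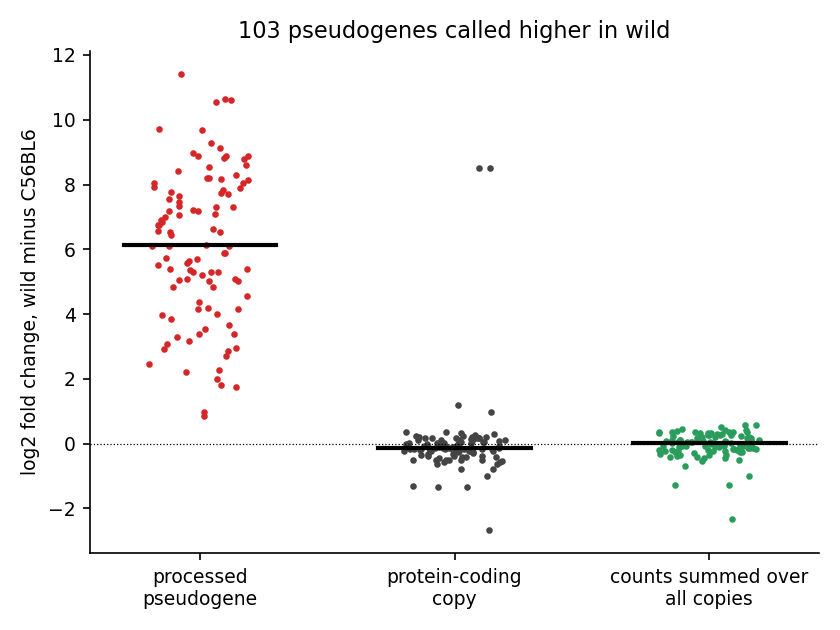
Log2 fold change, wild minus C56BL6, of the 103 processed pseudogenes called higher in wild, of the protein-coding copy nearest to each, and of the counts summed over all copies; points are genes or families and black bars are medians. The pseudogenes lie above 0 by their choice (median 6.12), while coding copies and summed families centre near 0 (medians -0.13 and 0.01), and the 2 coding copies near 8.5 are both Eno1b.

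The ribosomal protein gene Rpl29 was lower in wild. It was at 37.4, 40.5, 39.4 and 42.4 CPM in wild and at 287, 256, 241 and 236 CPM in C56BL6, with little spread inside each group (log2 fold change -2.68 ± 0.10, SE, adjusted p = 3.4e-06). Its copy Gm8210 was higher in wild, at 6.68, 5.72, 8.13 and 7.21 CPM against 0, 0, 0 and 0.0310 CPM (842 counts against 1). The wild mean of Gm8210 was 6.93 CPM, and the means of Rpl29 were 39.9 CPM in wild and 255 CPM in C56BL6. Summed over its 79 annotated genes, the Rpl29 family was also lower in wild, at 51.3 ± 2.44 against 259 ± 23.6 CPM (SD, n = 4; log2 fold change -2.34, adjusted p = 3.4e-05). Rpl34 was at 105, 96.8, 123 and 137 CPM in wild and at 327, 329, 284 and 241 CPM in C56BL6 (log2 fold change -1.35 ± 0.15, SE, adjusted p = 0.0019), and its family was also called lower (adjusted p = 0.0076). Rpl29 and Rpl34 were 2 of 94 ribosomal protein genes (2.13%) to differ, none higher. Whether reads of these genes went to places outside the annotation was not tested. The architectural chromatin gene Hmga1, chosen after its values were seen, was lower in wild (log2 fold change -1.80, adjusted p = 0.045) and its copy Hmga1b higher (log2 fold change 5.57, adjusted p = 0.0017), with the family at -1.45 (adjusted p = 0.10). The call of Hmga1 was lost without any 1 library other than wild replicate 3 (adjusted p up to 0.115).

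Genes for which C57BL strains carry well-known alleles were compared first among the gene lists. Of the 14 listed, 6 passed the expression filter, and Ifi202b, Apobec3 and Gbp2b were called, all higher in wild. Ifi202b and Gbp2b passed the filter only through the wild libraries, where they are high, so the share of calls among the 6 is not read as a result. Apobec3, a cytidine deaminase that restricts retroviruses, was at 19.4, 36.9, 20.6 and 25.9 CPM in wild and at 6.56, 3.53, 2.09 and 3.04 CPM in C56BL6, with no overlap (log2 fold change 2.76 ± 0.38, SE, adjusted p = 0.0051). Gbp2b, an interferon-inducible guanylate-binding protein, was at 2.20, 0.877, 1.61 and 0.699 CPM in wild and had no count in C56BL6, at least 53.1-fold higher. Nnt, the mitochondrial transhydrogenase of which a C57BL substrain carries a known deletion, was at 0.260 to 0.595 CPM in wild and 0.372 to 0.659 CPM in C56BL6, low and overlapping (log2 fold change -0.24, adjusted p = 0.72). Gabra2, Mx1 and Asip did not pass the expression filter.

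Among 35 interferon-stimulated genes, 1 was higher and 1 lower (5.71%, against 5.79% of all genes), and 29 of 35 had a log2 fold change above 0 (median 0.53, against 0.03 over all genes). At an unadjusted p under 0.05, 11 were higher and 2 lower, and DESeq2 called 7 higher and 1 lower. Over all 13872 genes, 3077 had an unadjusted p under 0.05, and DESeq2 called 985 higher and 729 lower. The higher count was 2 without any 1 wild library and 3 without C56BL6 replicate 4, and the lower count stayed at 1. The guanylate-binding protein gene Gbp2 was at 63, 43.7, 71.7 and 31.7 CPM in wild and at 7.31, 8.64, 11.1 and 12.2 CPM in C56BL6 (log2 fold change 2.42 ± 0.29, SE, adjusted p = 0.0024). Mndal, a DNA-binding relative of Ifi202b, went the other way with 1.29, 2.60, 1.90 and 3.68 CPM in wild and 18, 14.3, 19.8 and 20.2 CPM in C56BL6 (log2 fold change -2.93, adjusted p = 0.0018), and a 95.5% identical relative, Ifi211, makes its value uncertain. Of 21 MHC and antigen presentation genes, 1 was called (4.76%), the class I gene H2-T24, at 0.328 to 1.30 CPM in wild and 2.88 to 4.61 CPM in C56BL6 (log2 fold change -2.15, adjusted p = 0.022), lost without C56BL6 replicate 2, 3 or 4 (adjusted p up to 0.0699). The classical class I gene H2-K1 and its light chain gene B2m had log2 fold changes of -0.03 and -0.15 (adjusted p = 0.94 and 0.49).

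Complement genes were higher in wild in 4 of 16 and lower in none (25% called, against 5.79% of all genes). C1s2 and C2 passed the filter only through the wild libraries, so this share is given as description. C1s2, a serine protease of the classical pathway, was at 0.735, 6.56, 3.41 and 10.2 CPM in wild and at 0.103, 0.127, 0.110 and 0.186 CPM in C56BL6 (log2 fold change 5.26 ± 0.81, SE, adjusted p = 0.0086). Masp1, a serine protease of the lectin pathway, was at 525, 558, 201 and 212 CPM in wild and at 86.7, 117, 116 and 119 CPM in C56BL6 (log2 fold change 1.77, adjusted p = 0.030). C2, which supplies the protease of the C3 convertase, was at 0.944, 6.63, 1.61 and 7.56 CPM against 0.0732 to 0.465 CPM (log2 fold change 3.86, adjusted p = 0.035), and C4a at 1.57 to 5.55 against 0.330 to 0.826 CPM (log2 fold change 2.23, adjusted p = 0.033). For each of the 4 genes all wild libraries were above all C56BL6 libraries. C1s2 and C4a each have a relative at 96.0% identity, C1s1 and C4b, so reads can be split between them. The count of complement genes was 1 without C56BL6 replicate 1, 2 or 4, and 2 without C56BL6 replicate 3 or wild replicate 2. The call of Masp1 was lost in 6 of the 8 fits without 1 library (adjusted p up to 0.0906; kept without wild replicate 3 or 4) that of C4a in 5 (adjusted p up to 0.0971; kept without wild replicate 1, 2 or 4), and that of C2 in 6 (adjusted p up to 0.0994; kept without wild replicate 1 or 3). C3, the central component, was at 3.50 to 121 CPM in wild and 3.02 to 20.0 CPM in C56BL6 (adjusted p = 0.49).

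Antioxidant and glutathione genes were called in 10 of 45 (22.2%, against 5.79% of all genes), 8 of them lower in wild. Over all genes 2.43% were called lower. The median log2 fold change was -0.07 over the 45 and 0.03 over all genes. Gclc, the catalytic subunit of the enzyme that begins glutathione synthesis, was at 32.5, 37.3, 32.1 and 37.2 CPM in wild and at 68.4, 59.8, 62.1 and 64.3 CPM in C56BL6 (log2 fold change -0.87 ± 0.09, SE, adjusted p = 0.0013). Its modifier subunit gene Gclm was lower as well (log2 fold change -0.61, adjusted p = 0.021). Gsto1, an omega-class glutathione transferase, was at 135, 149, 77.0 and 145 CPM in wild and at 509, 396, 378 and 343 CPM in C56BL6 (log2 fold change -1.68 ± 0.23, SE, adjusted p = 0.0045). For Gclc, Gclm and Gsto1 the groups did not overlap.

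The other lower members were the quinone reductase gene Nqo1 (-1.42), the thioredoxin reductase gene Txnrd1 (-0.77), the sulfiredoxin gene Srxn1 (-0.60), the peroxiredoxin gene Prdx1 (-0.46) and the catalase gene Cat (-0.46), with adjusted p-values of 0.022 to 0.044. Higher in wild were Slc7a11, the cystine importer that feeds glutathione synthesis, and Gstm2, a mu-class glutathione transferase (log2 fold change 0.41, adjusted p = 0.044). Slc7a11 was at 57.4, 47.7, 66.1 and 71.8 CPM in wild and at 23.9, 23.4, 28.7 and 24.9 CPM in C56BL6 (log2 fold change 1.27 ± 0.14, SE, adjusted p = 0.0019). The importer stood opposite to both subunits of the enzyme that uses its product. Both higher members have a near-identical copy, for Slc7a11 Gm6682 at 92.8% identity, so their values are less certain. Of the 8 lower members, 7 have none. Nfe2l2, the transcription factor that drives many of these genes, had a log2 fold change of -0.13 (adjusted p = 0.67), and its inhibitor gene Keap1 0.49 (adjusted p = 0.075). Gclc, Gsto1 and Slc7a11 were called in all 8 fits that left out 1 library, Gclm in all but that without C56BL6 replicate 4 (adjusted p = 0.0654), and Prdx1 in none (adjusted p up to 0.136). Txnrd1, Srxn1, Nqo1, Cat and Gstm2 were lost in 4 to 7 of the 8, among them those without C56BL6 replicate 1, 2 or 3 (adjusted p up to 0.129). The count of lower members was 3 without any 1 C56BL6 library and 6 or 7 without any 1 wild library, and the higher members numbered 4 without wild replicate 1 and 1 without wild replicate 2 or 4 or any 1 C56BL6 library. With all 24 h mouse groups in 1 fit 4 members were higher and 4 lower, and Gclc was not called (adjusted p = 0.0662).

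**Figure D4:**
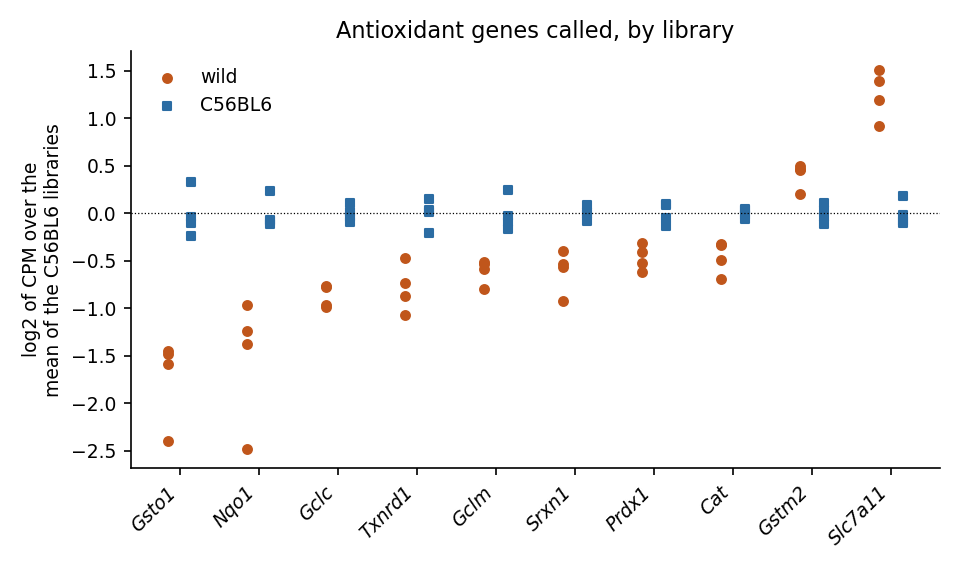
Log2 of CPM over the mean of the 4 C56BL6 libraries for the 10 antioxidant and glutathione genes called, with 4 wild (circles) and 4 C56BL6 libraries (squares) per gene. The 8 genes on the left lie below 0 in every wild library, Gsto1 and Nqo1 lowest, and Gstm2 and Slc7a11 lie above 0 in every wild library.

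Collagens, other matrix genes and matrix proteases gave 1 to 3 calls each. Over all 13872 genes 5.79% were called, 3077 had an unadjusted p under 0.05, and DESeq2 called 1714. Of 31 collagen genes 1 was called (3.23%, median log2 fold change 0.36), while 5 were higher and 0 lower at an unadjusted p under 0.05 and DESeq2 called 3 higher. The collagen calls moved with single libraries, with 0 higher and 2 lower without wild replicate 1, 0 and 1 without wild replicate 2, 2 and 0 without wild replicate 3, 1 and 1 without wild replicate 4, and none without any 1 C56BL6 library. Col5a2, a chain of the fibril-nucleating type V collagen and the most abundant called gene, was at 9508, 7004, 7385 and 4708 CPM in wild and at 2522, 4095, 3249 and 3580 CPM in C56BL6 (log2 fold change 1.09, adjusted p = 0.040), lost in 7 of the 8 fits without 1 library, all but wild replicate 4 (adjusted p up to 0.117). Of 57 matrix glycoproteins and proteoglycans 2 were higher and 1 lower (5.26%), while 42 had a log2 fold change above 0 (median 0.53). At an unadjusted p under 0.05, 14 were higher and 3 lower, DESeq2 called 9 and 3, and without wild replicate 1 the calls were 4 and 0. Without wild replicate 2 or 3 they were 2 and 1, and without wild replicate 4 they were 3 and 0. Without C56BL6 replicate 1 they were 2 and 0, and without C56BL6 replicate 2, 3 or 4 they were 1 and 0. Lama4, the laminin alpha 4 chain, was at 124, 139, 112 and 182 CPM in wild and at 14.6, 5.78, 23.4 and 31.4 CPM in C56BL6 (log2 fold change 2.89 ± 0.47, SE, adjusted p = 0.011), and was called in all 8 fits without 1 library. Ltbp2, a microfibril-associated relative of the TGF-beta binding proteins, was at 1660, 1472, 1237 and 1331 CPM in wild and at 223, 611, 558 and 595 CPM in C56BL6 (log2 fold change 1.52, adjusted p = 0.026), lost without C56BL6 replicate 2, 3 or 4 (adjusted p up to 0.0713). Loxl3, a collagen and elastin cross-linking oxidase, was lower (log2 fold change -1.28, adjusted p = 0.045), lost without any 1 library other than wild replicate 2 or 3 (adjusted p up to 0.125).

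Of 28 matrix proteases and inhibitors, 1 was higher and 1 lower (7.14%), with 7 higher and 4 lower at an unadjusted p under 0.05 and 4 and 2 by DESeq2. Adam12, a membrane metalloproteinase, was at 270, 236, 231 and 291 CPM in wild and at 140, 110, 159 and 154 CPM in C56BL6 (log2 fold change 0.87 ± 0.14, SE, adjusted p = 0.011), and stayed called without any 1 library. Plau, the urokinase plasminogen activator, was at 55.7 to 152 CPM against 179 to 284 CPM (log2 fold change -1.30, adjusted p = 0.048), lost without any 1 library other than wild replicate 1 (adjusted p up to 0.127). Besides Col5a2, Hspa8 and Ltbp2, the most abundant called genes were Anxa1 and Tpi1. Anxa1, a phospholipid-binding anti-inflammatory protein, was at 819 to 1185 CPM in wild and 1430 to 1922 CPM in C56BL6 (log2 fold change -0.74, adjusted p = 0.034), lost without any 1 library other than wild replicate 1 (adjusted p up to 0.105). Tpi1, a glycolytic isomerase, was at 870 to 1234 against 588 to 692 CPM (log2 fold change 0.71, adjusted p = 0.021), lost without C56BL6 replicate 2, 3 or 4 (adjusted p up to 0.0815).

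Hox genes varied widely within the wild group. Of 28 tested, 2 were lower in wild and none higher (7.14%, against 5.79% of all genes, median log2 fold change 0.09). Hoxc4 was at 0.874, 4.48, 1.02 and 5.11 CPM in wild and at 15.3, 21.5, 18.6 and 22 CPM in C56BL6 (log2 fold change -2.75, adjusted p = 0.035), and its neighbour Hoxc5 at 0.245, 2.21, 0.394 and 4.10 CPM against 17.7, 23, 20.9 and 21.7 CPM (log2 fold change -3.58, adjusted p = 0.039). Wild replicates 2 and 4 were above 1 and 3 for both, and all 4 were below C56BL6. Both calls were lost without wild replicate 3 or any 1 C56BL6 library (adjusted p up to 0.0943 for Hoxc4 and 0.104 for Hoxc5), and that of Hoxc5 also without wild replicate 2.

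The remaining positional genes in this paragraph were chosen after their values were seen. Hoxc8 was at 0, 10.9, 0 and 54.2 CPM in wild and 67.1 to 161 CPM in C56BL6 (adjusted p = 0.32), and Hoxc10 at 0, 46.7, 0 and 48 CPM against 1.10 to 2.48 CPM (adjusted p = 0.28). Hoxa5 was at 54.5, 3.28, 47.2 and 1.84 CPM against 3.60 to 5.02 CPM (adjusted p = 0.18). The limb T-box genes Tbx4, at 55.9, 0, 21.7 and 0 CPM in wild, and Tbx5, at 29.7, 0.0974, 20.5 and 2.38 CPM, split the same way. Each of these genes was high in 1 wild pair and low or silent in the other. The pairs are those of the scaling, which uses the genes that differ most between libraries and may include these. With wild replicates 1 and 3 alone, 8 Hox genes were higher and 10 lower than in C56BL6, and with wild replicates 2 and 4 alone 3 and 3. Both alternatives were chosen after seeing the data and keep the wild libraries most alike in them, so these counts are given as description. The labels do not give the skin site, so site and animal cannot be told apart. Of 33 other positional transcription factors, 2 were lower and none higher (6.06%). They were Pax3 and Meis2, a Hox cofactor (log2 fold change -0.53, adjusted p = 0.040), whose call was lost without any 1 library other than wild replicate 1 or 4 (adjusted p up to 0.123).

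Signalling genes were called at shares near that of all genes (5.79%). Of 39 IGF, BMP and WNT genes, 1 was higher and 2 lower (7.69%). Fst, the activin-binding protein follistatin, was at 95.2, 16.5, 17.3 and 32.6 CPM in wild and at 104, 314, 436 and 386 CPM in C56BL6 (log2 fold change -2.94, adjusted p = 0.046), its relative Fstl3 was higher (log2 fold change 1.09, adjusted p = 0.044), and the WNT effector gene Lef1 was lower, at 0 to 0.318 CPM against 0.989 to 4.57 CPM (log2 fold change -3.66, adjusted p = 0.045). Each of the 3 calls was lost in 6 or 7 of the 8 fits without 1 library (adjusted p up to 0.115, 0.129 and 0.115 for Fst, Fstl3 and Lef1). The exceptions were wild replicate 1 and C56BL6 replicate 1 for Fst, wild replicates 3 and 4 for Fstl3, and wild replicate 3 for Lef1. Of 30 immediate early genes, 2 were lower (6.67%), the transcription factors Klf2 and Klf4 (log2 fold changes -0.69 and -1.03, adjusted p = 0.036 and 0.045), and Klf4 overlapped between the groups. Klf2 was kept without wild replicate 2 and Klf4 without wild replicate 2 or C56BL6 replicate 1, and both were lost without any other library (adjusted p up to 0.0837 and 0.124).

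Metabolic lists gave 1 gene each. Of 23 cholesterol genes, Mvk, the mevalonate kinase, was higher (4.35%, log2 fold change 0.49, adjusted p = 0.040), and of 20 adipogenic and lipid genes, Dgat2, which completes triglyceride synthesis, was higher (5.0%, log2 fold change 0.98, adjusted p = 0.034). Mvk has a near-identical copy, Gm57273, at 91.0% identity, so its value is less certain. The call of Mvk was lost without any 1 library other than wild replicate 1, and that of Dgat2 without any other than wild replicate 1 or C56BL6 replicate 3 (adjusted p up to 0.125 and 0.104). Zinc finger (Zfp) genes numbered 7 higher and 7 lower of 356 (3.93%). The 3 with the lowest p were Zfp985, Zfp990 and Zfp979. Zfp979 was at 13.7, 12.3, 13.6 and 12.4 CPM in wild and at 1.30, 2.51, 3.26 and 2.29 CPM in C56BL6 (log2 fold change 2.47, adjusted p = 0.0017). Zfp985 had 298 counts in wild against 1 and Zfp990 488 against 1, and both have relatives at 90 and 93.4% identity.

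In 6 lists edgeR's test on the 8 libraries called no member, although in 3 of them leaving out 1 library gave calls. The counts of these lists stand beside 3077 of all 13872 genes at an unadjusted p under 0.05 and 1714 called by DESeq2. Proliferation genes had 8 of 40 above 0 and 32 below (median log2 fold change -0.13), with 4 lower at an unadjusted p under 0.05 and 1 lower by DESeq2. The lowest p was that of Ccne2, cyclin E2, at 7.5 to 12.4 CPM in wild and 13.8 to 20.6 CPM in C56BL6 (adjusted p = 0.070). Of 33 p53 targets and cell cycle inhibitors, 24 were below 0 (median -0.32), with 2 higher and 9 lower at an unadjusted p under 0.05 and 6 lower by DESeq2. Without wild replicate 1, 7 of them were called lower, and without wild replicate 2, 1 was. With all 24 h mouse groups in 1 fit 4 were called lower. Mdm2, the ligase that degrades p53, was at 159, 117, 107.8 and 152 CPM in wild and at 223, 217, 206 and 177 CPM in C56BL6 (log2 fold change -0.62, adjusted p = 0.0505, and 0.0348 to 0.138 without 1 library), and Cdkn2a, which encodes p16 and p19ARF, at 57.5, 77.9, 49.9 and 85.9 CPM against 50.6, 65.9, 33.7 and 32.5 CPM (adjusted p = 0.26).

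Of 28 myofibroblast and contractile genes, 2 were higher at an unadjusted p under 0.05 and 1 by DESeq2, and without wild replicate 1, 1 was called lower. The lowest p was that of Ankrd1, a mechanically induced cofactor (log2 fold change 1.04, adjusted p = 0.12). Acta2, smooth muscle actin, was at 13706, 4027, 5818 and 3826 CPM in wild and 6565 to 7472 CPM in C56BL6, so the wild spread enclosed the C56BL6 range (log2 fold change -0.01, adjusted p = 0.99). Of 17 chemokines and cytokines, 1 was higher at an unadjusted p under 0.05 and 0 by DESeq2, with Il11 lowest in p (adjusted p = 0.20). Of 37 imprinted genes, 3 were lower at an unadjusted p under 0.05 and 2 by DESeq2, with the non-coding RNA Meg3 lowest in p, at 423 to 545 CPM in wild and 572 to 1291 CPM in C56BL6 (adjusted p = 0.071). Of the imprinted genes 3 were called lower without C56BL6 replicate 1, and 1 without wild replicate 1 or 2. Of 12 genes of the mitochondrial genome, 1 was lower at an unadjusted p under 0.05 and 1 by DESeq2, the complex I subunit mt-Nd2 (adjusted p = 0.082). A p that misses the threshold does not show that these lists were alike in the populations.

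Called genes also lay next to each other. Neighbours in the order of tested genes formed 13 runs of 3 or more calls in 1 direction. The genes in this paragraph were chosen after their values were seen. One run on chromosome 15 (79670552 to 79855320) held Nptxr, Cbx6, Apobec3 and Cbx7, all higher in wild, where Cbx6 and Cbx7 encode Polycomb subunits. Cbx6 was at 129, 160, 169 and 122 CPM in wild and at 81.3, 71.0, 67.4 and 80.3 CPM in C56BL6 (log2 fold change 0.95, adjusted p = 0.0050). Apobec3 and Cbx7 overlap in the annotation, and without strand in the counting their reads cannot be told apart in the shared stretch, while the call of Cbx7 was lost without any 1 C56BL6 library (adjusted p up to 0.0811).

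On chromosome 19 (20350792 to 20620829) Anxa1 and Aldh1a1 were lower in wild with the gene between them. Aldh1a1, a retinaldehyde dehydrogenase, was at 15.3, 16.8, 9.35 and 18.8 CPM in wild and at 59.1, 134, 77.7 and 71.6 CPM in C56BL6 (log2 fold change -2.50, adjusted p = 0.0029). On chromosome 6 (124538174 to 124613044) C1rb and C1s2, a pair of classical complement proteases, were higher with a pseudogene, all 3 with near-identical copies. C1rb was at 0.769, 5.39, 3.51 and 6.26 CPM in wild and had 3 counts in all in C56BL6. Over the autosomes, calls ranged from 3.56% of tested genes on chromosome 5 to 7.95% on chromosome 12.

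By their replicate numbers the same 4 animals of each population gave the other 6 matched pairs of groups, so these describe the same cultures and are no independent support. Of the 803 called genes, 751 (93.5%) had non-overlapping libraries in the same direction in untreated passaged cells at 12 d, 692 (86.2%) at 20 Gy and 24 h, and 601 (74.8%) at 10 Gy and 24 h. In untreated cells at 12 d the count was 435 (54.2%), and at 12 d after 10 and 20 Gy it was 529 (65.9%) and 564 (70.2%). Of genes tested and not called, 6.79 to 19.7% did so. Among the 519 called protein-coding genes without a copy, the share ran from 43.7% in untreated to 92.1% in passaged cells at 12 d. In the 10 Gy and 24 h group, wild replicate 1 held 17.42 M counts and 17263 genes with a count, against 21149 to 21531 in the other 3. Without it the count was 717 (89.3%). Leaving out a library cannot lower such a count, and the share among genes not called was not computed without it. The wild libraries of the 12 d groups labelled replicate 1 resembled 24 h replicate 4, more than 24 h replicate 1, which goes against their labels. Genes over 2 CPM in 1 library and at 0 in the other numbered 0 to 14 against 24 h replicate 4 and 36 to 94 against 24 h replicate 1. The 12 d libraries labelled replicate 4 resembled 24 h replicate 4 as well, with 0 to 12 such genes. Whether the 12 d wild groups hold 4 different animals was not tested. Without wild replicate 1 the counts at 12 d were 448, 758, 545 and 578 in untreated, passaged, 10 Gy and 20 Gy cells. These too could not fall when a library was left out.

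In all 6 pairs of groups 313 of the 803 genes separated in the same direction (39%), against 0.62% of genes not called. Among the called protein-coding genes without a copy it was 138 of 519 (26.6%). Cd200 did so in all 6, with wild means of 128 to 260 CPM and C56BL6 means of 1.27 CPM or less. Rpl29 did so as well, with wild means of 20.2 to 45.2 CPM and C56BL6 means of 119 to 251 CPM. Gclc separated in 5 of 6, and in untreated cells at 12 d it was at 22.2 ± 1.41 CPM in wild and 20.6 ± 2.58 CPM in C56BL6 (SD, n = 4).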

How the data were processed

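Counts of reads per gene in 56 mouse libraries were deposited by the authors as raw counts, and 8 libraries were used here. Per the file headers the counts were made with featureCounts 2.0.3 on GRCm39 with Ensembl release 108. The recorded command sets no option for strand, multiply mapped reads or overlapping genes, so antisense, overlapping and near-identical genes are uncertain. Per the submitters' processing notes Trim Galore and HISAT2 were also used, with no version given. The authors also deposited other values, exon lengths in base pairs, which were not tested. All 56 count columns matched a library name and 0 were left unused.

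Of 56980 identifiers, 56236 matched a symbol in GENCODE M39 of the same build. After removing 4239 on X and Y, 52741 were left, and filterByExpr kept 13872. Scaling used TMM factors (trimmed mean of M values), and the test was the quasi-likelihood test of edgeR 4.0.16 under R 4.3.3 (Benjamini-Hochberg adjustment over all genes, threshold 0.05, tested on simulated data). Only the 8 libraries entered the fit, with no covariate. CPM is counts per M of TMM-scaled library size of the genes tested. Copies were found with blastn 2.17.0 between annotated transcripts (13836 of 13872 tested genes had a sequence). Replicates differed beyond sampling noise (chi-square per gene 16.5 to 330), so each library is 1 replicate. Totals of 27.86 to 32.75 M put a floor of 3 counts at 0.093 to 0.11 CPM.

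Genes were named by a rule: the 12 largest differences in each direction among called genes with at least 5 CPM in the higher group, non-overlapping libraries and an assigned gene symbol; a panel of Nnt, Gabra2, Apobec3, Mx1, Asip and Cdkn2a; up to 3 called members of each list with the lowest p (or the 1 member with the lowest p); and the 5 called genes with the highest mean CPM. Genes named as examples of a list, a copy family or a neighbourhood were chosen after their values were seen. Members and lists were chosen with earlier results of these data known. Alternatives were other size factors, no expression filter, the replicate number as a block, all 24 h mouse groups in 1 fit, X and Y kept, the Wald test of DESeq2 1.42.0, and leaving out each library.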

Additional observations from a re-analysis of the deposited data

Results flagged for a closer look

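The 70 named genes gave 110 groups of 4 libraries with a highest value of at least 1 CPM. In 8 of these, 1 library lay far from the other 3 by Dixon's test, which marks about 1 in 20 groups when values are independent and normally distributed. These groups share the same 8 libraries and many of the genes were picked for large differences, so that rate need not hold here. C56BL6 replicate 1, the library with high Krt5 and Krt14, was the distant one in 5 of the 8 marked groups. There Sfn, the epithelial 14-3-3 sigma, was at 69.6 CPM against 3.41 to 4.58 in the others, the orphan receptor Gpr149 at 57.5 CPM against 3.10 to 10.0, and the transcription factor Klf2 at 48.3 CPM against 34.1 to 36.3. In the same library the lectin pathway protease Masp1 was at 86.7 CPM against 116 to 119, and the matrix protein Ltbp2 at 223 CPM against 558 to 611. Wild replicate 1 was distant for Serpina3h, at 63.6 CPM against 9.81 to 17.3, and for the kinase gene Hunk, at 1.43 CPM against 0 to 0.131. Wild replicate 2 was distant for the imprinted RNA Meg3, at 423 CPM against 529 to 545.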

How the results depend on the processing

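The count of genes called, 803 (466 higher and 337 lower in wild), depended on the choice of fit, and so did the count of protein-coding genes without a copy, 519. DESeq2 called 1714 (985 and 729), of them 1317 protein-coding genes without a copy (772 and 545). Leaving out 1 library gave 388 to 903 genes (256 to 503 higher, 132 to 400 lower), 177 to 589 protein-coding genes without a copy (98 to 312 and 76 to 277) and 3 to 7 lower pseudogenes. In 3 fits chosen after seeing the data, C56BL6 replicates 1 and 2 alone gave 148 (105 and 43), with 44 coding genes without a copy (21 and 23) and 68 pseudogenes (68 higher, 0 lower); wild replicates 1 and 3 alone gave 1578 (936 and 642), with 1121 coding (629 and 492); and wild replicates 2 and 4 alone gave 1755 (929 and 826), with 1248 coding (634 and 614) and 9 lower pseudogenes. Copies summed, also chosen afterwards, gave 514 genes, 272 higher. The wild pairs are the wild libraries most alike in these data, so their counts are given as description. The cause of these shifts was not tested. A replicate block gave 221 (155 and 66), with 90 coding genes without a copy (54 and 36) and 71 pseudogenes (69 and 2). Same-numbered libraries of the populations did not deviate together (correlations -0.14 to -0.01, against -0.26 to 0.23 for other pairs), so the numbers do not pair the samples. Other size factors, no expression filter, all 24 h mouse groups in 1 fit and X and Y kept gave 804, 685, 1136 and 792. Of 62 named genes called, 25 were called in every alternative that gave them a value, and none reversed. The uncalled Nnt changed sign, to 0.059 (adjusted p = 0.947), with wild replicates 1 and 3 alone. At this depth, levels under about 0.1 CPM cannot be told from 0.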

Other observations

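Of 72 long non-coding RNAs called, 54 were lower in wild, and of the 986 tested without a copy 15 were higher and 48 lower, with a median log2 fold change of -0.20 beside 0.04 for protein-coding genes without a copy. Genes with few counts in 1 group made up part of the calls: 95 of the 466 higher genes had under 3 counts per C56BL6 library on average, 66 of them processed pseudogenes, and 37 of the 337 lower genes had under 3 per wild library. Of all 803 called genes, 26 had no count in any C56BL6 library and 4 had none in any wild library. The class I MHC genes H2-T15 and H2-Q2, outside the lists, were among the former. Gvin1, a large interferon-inducible GTPase, went the other way with 3 counts in wild and 232 in C56BL6.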
